A study of Mus musculus with 4 samples.

Results

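The genes described here are 9 genes that make, sense and break down prostaglandins: *Ptgs1*, *Ptgs2*, *Ptges*, *Ptges2*, *Ptges3*, *Ptger1*, *Ptger2*, *Ptger4* and *Hpgd*. They were taken by their gene symbols from the 22063 genes of one count table, and the set was chosen on its levels and on the change between the groups in these same 4 libraries, so their values, and any call made on them in the fit across all genes, are a description and support nothing, and no p-value of theirs is given. The cells were TKPTS cells, called TKPT in the labels, an established line of mouse renal proximal tubular cells. All of them were kept for 24 h in 1% O2 and 5% CO2 and then for 12 h in normal oxygen, a cell model of hypoxia/reoxygenation injury, and no library of cells without this injury was analysed here. Replicates 2 and 3 of the control group had received a scrambled siRNA (si-NC; genotype labelled WT), and replicates 1 and 3 of the other group had received an siRNA against *Itgb6* (si-*Itgb6*; genotype labelled *Itgb6* knockdown), which encodes the beta subunit of the epithelial integrin αvβ6. The study's methods say in general that experiments had biologically independent replicates, but neither they nor the labels say which cultures these libraries came from. A p-value measures the spread between these libraries only. An exact permutation of 2 against 2 libraries cannot give a two-sided p under 0.333. The totals were 15435074 to 17220281 counts per library, and replicates stood further apart than sampling noise alone would put them (chi-square per gene 3.21 in si-NC and 4.04 in si-*Itgb6*). Wherever a pair of values is given for a group, si-NC replicate 2 precedes replicate 3, and si-*Itgb6* replicate 1 precedes replicate 3.

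Prostaglandins are short-range lipid signals made from arachidonic acid, which phospholipases release from membranes. A cyclooxygenase turns it into an unstable endoperoxide, terminal synthases turn that into prostaglandin E2 or a sister prostanoid, and receptors on the same or neighbouring cells sense the product before a transporter and an intracellular dehydrogenase remove it. In the kidney, prostaglandin E2 is known for its effects on blood flow, renin release and salt and water transport. *Ptgs2*, the inducible cyclooxygenase, is a textbook immediate early gene: its promoter carries sites for C/EBP, NF-kB and cAMP-dependent factors, and its messenger RNA holds many AU-rich elements in the 3′ UTR, which mark it for rapid decay.

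The promoters of the cyclooxygenase genes *Ptgs2* and *Ptgs1*, of the receptor gene *Ptger4* and of the synthase gene *Ptges2* are shown because these are the 4 genes whose counts did not overlap between the groups. Each runs 5′ to 3′ on the gene's own strand, from 250 bases before the RefSeq start to 50 bases after it (GRCm38.p6), with matches to any motif named in the next paragraph in capitals except the GC box. The *Ptgs2* promoter lies at chr1:150099781-150100080 on the plus strand, that of *Ptgs1* at chr2:36230176-36230475 on the plus strand, that of *Ptger4* at chr15:5244138-5244437 on the minus strand and that of *Ptges2* at chr2:32395640-32395939 on the plus strand.
Ptgs2: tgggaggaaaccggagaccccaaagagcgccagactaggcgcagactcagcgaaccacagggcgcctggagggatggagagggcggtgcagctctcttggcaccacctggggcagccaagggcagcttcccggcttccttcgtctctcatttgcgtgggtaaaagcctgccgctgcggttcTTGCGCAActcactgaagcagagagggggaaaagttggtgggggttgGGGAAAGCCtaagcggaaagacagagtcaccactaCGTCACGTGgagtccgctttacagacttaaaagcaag
Ptgs1: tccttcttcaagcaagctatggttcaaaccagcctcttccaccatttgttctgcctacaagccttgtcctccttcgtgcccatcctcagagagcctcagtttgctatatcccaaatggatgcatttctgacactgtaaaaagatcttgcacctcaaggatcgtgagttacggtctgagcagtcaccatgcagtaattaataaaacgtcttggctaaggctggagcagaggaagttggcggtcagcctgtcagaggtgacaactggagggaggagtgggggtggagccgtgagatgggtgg
Ptger4: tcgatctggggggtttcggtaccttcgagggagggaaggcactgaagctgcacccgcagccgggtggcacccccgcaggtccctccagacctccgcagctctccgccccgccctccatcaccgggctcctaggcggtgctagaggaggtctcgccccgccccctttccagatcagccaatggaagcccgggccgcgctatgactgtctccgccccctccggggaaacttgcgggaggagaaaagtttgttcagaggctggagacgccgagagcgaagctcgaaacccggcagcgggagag
Ptges2: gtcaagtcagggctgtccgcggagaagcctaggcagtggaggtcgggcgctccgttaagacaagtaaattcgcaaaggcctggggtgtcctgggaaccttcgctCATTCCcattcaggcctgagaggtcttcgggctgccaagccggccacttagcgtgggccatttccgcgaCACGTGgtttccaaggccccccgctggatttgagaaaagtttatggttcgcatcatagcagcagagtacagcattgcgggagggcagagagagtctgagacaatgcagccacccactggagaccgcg

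Motifs were searched on both strands of 32851 RefSeq promoters, which hold 8 of the 9 genes (*Ptger1* was not matched). Positions give the leftmost base of a match as the promoter is printed, on either strand, counted from the start of the gene. A C/EBP palindrome, TTGCGCAA, stands in the *Ptgs2* promoter at -69, and 0.183% of all promoters hold one. The NF-kB-like letters GGNNTTNCC stand there at -22 on the minus strand, as in 16.0% of promoters. An E-box, CACGTG, found in 7.15% of promoters, stands at 16. It shares bases with the cAMP response half-site TGACG, found in 20.8%, which stands at 13 on the minus strand. Every E-box also holds the hypoxia response core ACGTG on both strands, and 19.6% of all promoters hold that core. *Ptges2* has an E-box too, at -77, and the letters GGAATG of a TEAD site at -146 on the minus strand, as in 14.7% of promoters. The *Ptgs1* promoter held no match to any motif searched, and *Ptger4* held only the GC box GGGCGG, at 4 places, which 35.7% of promoters have. None of the 4 promoters held TATAAA, present in 13.6% of promoters, or the AP-1 letters TGANTCA, present in 7.81%. A match describes letters in this window and is not a measured binding site, and a lack of one says nothing about binding of the factor.

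*Itgb6* (ENSMUSG00000026971, chr2:60598292-60722643, minus strand) was read first because the siRNA is directed at it. Its counts were 285 and 284 with the scrambled siRNA, and 279 and 260 with the *Itgb6* siRNA. In CPM, counts scaled to 1000000 per library with its TMM factor, the means were 16.96 ± 0.730 and 16.91 ± 1.58 (SD, n = 2 each). In edgeR's quasi-likelihood fit the log2 difference was -0.0051 with a standard error (SE) of 0.13 (adjusted p = 0.991). A lower *Itgb6* messenger RNA was therefore not detectable in these 4 libraries, and si-*Itgb6* below means the libraries labelled so. The study itself reports less αvβ6 protein by western blot in hypoxic TKPTS cells given this siRNA. Its methods name qPCR and western blot as the check of the siRNA. Protein was not measured in the data used here.

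Both cyclooxygenase messages stood higher in si-*Itgb6*. *Ptgs2* (ENSMUSG00000032487), which encodes the inducible enzyme COX2, spans chr1:150100031-150108227 on the plus strand. Its counts were 1851 and 2185 in the control pair and 2501 and 2789 in the si-*Itgb6* pair. As normalised counts these were 113.5 and 126.5 CPM against 161.6 and 169.4 CPM, so that both si-*Itgb6* libraries lay above both si-NC libraries. The means were 120.0 ± 9.20 CPM (SD, n = 2) and 165.5 ± 5.53 CPM (SD, n = 2), a 1.38-fold difference or 0.46 on the log2 scale (SE 0.06). Each group's gap to the other exceeded the spread within it, and the log2 difference stayed between 0.39 and 0.55 when any 1 library was left out. The GC content of a transcript moved with the log2 difference over all genes tested (Spearman's rho across genes -0.36), and that of *Ptgs2* is 40.0% against a median of 49.8%. With the trends over GC content and length taken out of each library, the *Ptgs2* difference was 0.38.

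*Ptgs1* (ENSMUSG00000047250, chr2:36230426-36252272, plus strand) encodes COX1, the cyclooxygenase that many tissues make constantly. The si-NC libraries held 287 and 271 of its reads, the si-*Itgb6* libraries 340 and 323. The normalised counts were 17.6 and 15.7 CPM in si-NC and 22.0 and 19.6 CPM in si-*Itgb6*. Here too the groups did not overlap, although the highest si-NC library and the lowest si-*Itgb6* library stood nearer to each other than in *Ptgs2*. The means, 16.6 ± 1.35 CPM and 20.8 ± 1.66 CPM (SD, n = 2 each), differed 1.25-fold, or by 0.32 on the log2 scale (SE 0.13), and by 0.24 to 0.40 without any 1 library. Per length, in the deposited FPKM, *Ptgs2* was the more abundant cyclooxygenase in every library. The ratio of *Ptgs2* to *Ptgs1* was 4.15 and 5.19 in si-NC, and 4.74 and 5.56 in si-*Itgb6*. These ratios overlapped between the groups (4.67 ± 0.734 and 5.15 ± 0.582; SD, n = 2 each), so a shift in the balance of the cyclooxygenase messages was not detectable in 4 libraries.

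**Figure D1:**
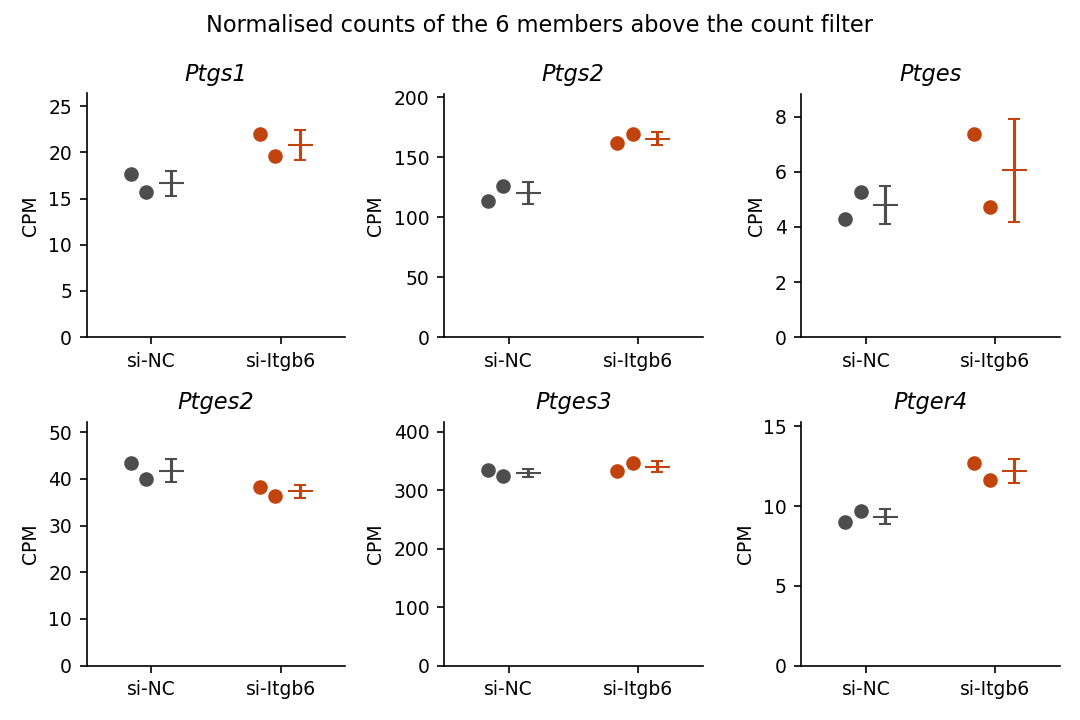
Normalised counts in CPM (linear axes from 0, one panel per gene) of the 6 genes above the count filter; each point is 1 library, and the bar beside each pair is the mean with its SD. The 2 si-*Itgb6* points stand above both si-NC points for *Ptgs1*, *Ptgs2* and *Ptger4*, and below both for *Ptges2*. For *Ptges* and *Ptges3*, 1 si-*Itgb6* point stands above both si-NC points and the other lies between them.

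The 3 prostaglandin E synthases did not move together. *Ptges* (ENSMUSG00000050737, chr2:30889471-30929863, minus strand) encodes the inducible microsomal synthase that is usually paired with COX2. Its 70 and 91 counts for si-NC, and 114 and 78 for si-*Itgb6*, are 4.29 and 5.27 CPM against 7.37 and 4.74 CPM. The high value belongs to si-*Itgb6* replicate 1 alone, and replicate 3 lay between the si-NC libraries. The means were 4.78 ± 0.691 CPM and 6.05 ± 1.86 CPM (SD, n = 2 each), and the log2 difference of 0.33 had an SE of 0.24. Without si-*Itgb6* replicate 1 it was -0.02, and without si-*Itgb6* replicate 3 it was 0.62, so its size rested on which of these libraries was kept.

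*Ptges2* (ENSMUSG00000026820, chr2:32395896-32405772, plus strand) encodes a membrane-associated synthase that is made constantly. Its 709 and 691 counts in si-NC and 592 and 599 counts in si-*Itgb6* gave 43.5 and 40.0 CPM against 38.2 and 36.4 CPM. It was the only one of the 9 genes with both si-*Itgb6* libraries below both si-NC libraries. The means, 41.7 ± 2.45 CPM and 37.3 ± 1.32 CPM (SD, n = 2 each), differed by -0.16 on the log2 scale (SE 0.09), and with the GC and length trends removed by -0.08. *Ptges3* (ENSMUSG00000071072, chr10:128058954-128077272, plus strand) encodes the cytosolic synthase, which is also p23, a cochaperone of the heat shock protein HSP90. It had 334.9 and 324.1 CPM in si-NC, and 333.8 and 347.4 CPM in si-*Itgb6*. The groups overlapped, with a log2 difference of 0.05 (SE 0.05), which was -0.03 with the trends removed. Its counts were whole in all 4 libraries.

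Among the receptors of prostaglandin E2, only *Ptger4* had reads enough for the test. *Ptger4* (ENSMUSG00000039942, chr15:5206661-5244187, minus strand) encodes EP4, which signals through Gs and raises cAMP. Its counts were 147 and 167 against 197 and 192. In CPM these were 9.01 and 9.67 against 12.7 and 11.7, with no overlap between the groups. The means were 9.34 ± 0.463 CPM and 12.2 ± 0.753 CPM (SD, n = 2 each), a 1.30-fold difference or 0.38 on the log2 scale (SE 0.16), and 0.32 to 0.45 without any 1 library. The libraries carry no strand information, and on the opposite strand *Gm15937*, which the count table does not list, overlaps 15.3% of the *Ptger4* exon bases and *Ttc33* overlaps 1.23%.

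*Ptger1* (ENSMUSG00000019464, chr8:83666678-83672753, plus strand) encodes EP1, which signals through calcium. Its estimated counts were 10.91 and 6.97 in si-NC, and 4.61 and 7.58 in si-*Itgb6*, none of them whole, and the gene did not pass the count filter. *Ptger2* (ENSMUSG00000037759, chr14:44988195-45003820, plus strand), which encodes EP2, the other Gs-coupled receptor, had 0 counts in all 4 libraries. The 3 counts that a count of 0 allows come to 0.174 to 0.194 CPM per library, for counting error only. *Hpgd* (ENSMUSG00000031613, chr8:56294585-56321043, plus strand) encodes the dehydrogenase that inactivates prostaglandins. It had 0 counts in 3 libraries and 3 counts in si-*Itgb6* replicate 3, and no fold is given because both groups are at or under that floor.

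The 9 genes span the range of the library per length. In FPKM, which divide the counts by transcript length and library size, *Ptges3* was highest at a mean of 167.7 over the 4 libraries (lowest 162.8, highest 171.5), above 96.1% of the genes tested. *Ptgs2* came next at 32.0 FPKM (25.7 to 37.5), above 78.3% of the genes tested. *Ptges2* at 8.12 FPKM (7.54 to 9.18) and *Ptgs1* at 6.52 FPKM (5.49 to 7.68) followed, and their ranges overlapped, so their order was not resolved. Below them stood *Ptger4* at 3.28 FPKM (2.75 to 3.89) and *Ptges* at 1.48 FPKM (1.18 to 2.03), with ranges apart from each other and from those above. *Ptger1* at 0.0975 FPKM overlapped *Hpgd*, whose 1 library with reads had 0.107 FPKM, and *Hpgd* in turn overlapped *Ptger2*, listed at 0. The message of the cytosolic synthase exceeded that of *Ptges2* by 18.4 and 20.2 times in si-NC and by 21.8 and 22.7 times in si-*Itgb6*. *Ptgs2* exceeded *Ptges* by 21.7 and 19.7 times in si-NC and by 18.0 and 29.3 times in si-*Itgb6*, with the groups overlapping.

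**Figure D2:**
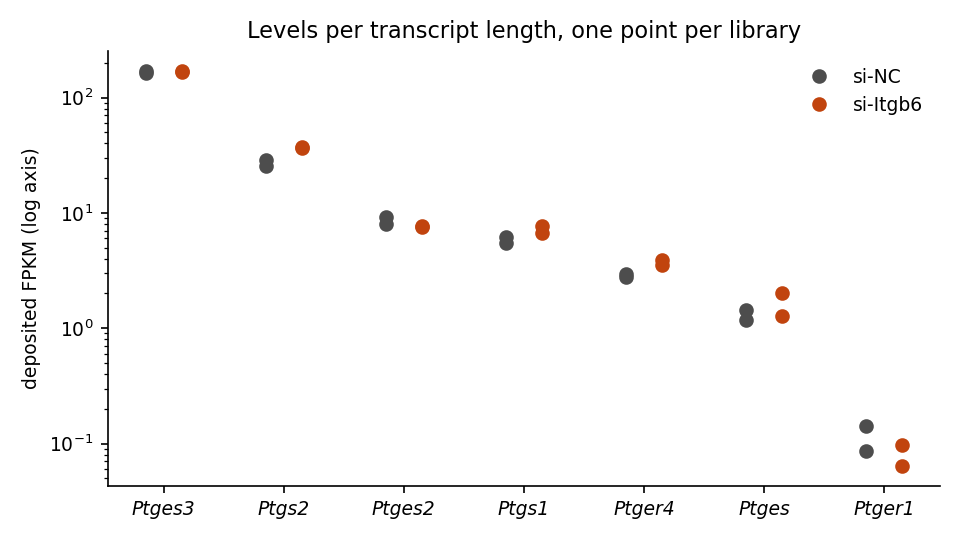
Deposited FPKM (log axis) of the 7 genes with reads in all 4 libraries, one point per library, si-NC to the left of si-*Itgb6*. The genes run from *Ptges3* near 167.7 FPKM to *Ptger1* near 0.0975 FPKM, and the ranges of neighbouring genes are apart except those of *Ptges2* and *Ptgs1*, which overlap; *Hpgd* and *Ptger2* are left out because they hold values of 0, which a log axis cannot show.

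Of the 9 genes, 6 were tested, and 3 of these (*Ptgs1*, *Ptgs2* and *Ptger4*) were called higher in si-*Itgb6* with edgeR under the thresholds that the study's methods give, a p under 0.05 without adjustment together with a fold change over 1.2. Of all 11727 genes tested, 4.37% passed in that direction. Neither edgeR nor DESeq2 called any of the 6 lower, against 5.2% of all genes tested. One of them, *Ptgs2*, had a Benjamini-Hochberg adjusted p under 0.05, against 4.62% of all genes tested in either direction. The groups did not overlap with si-*Itgb6* above in 3 of the 6, against 23.8% of all genes tested, and with si-*Itgb6* below in 1 of the 6, against 25.4%. The median log2 difference was 0.33 over the 6 genes and 0.00017 over all genes tested. Since this contrast was among the values the genes were chosen on, nothing is read from these counts. The DESeq2 Wald test called 1 of the 6, *Ptgs2*. Leaving out si-*Itgb6* replicate 1 ended the calls of *Ptgs1* and *Ptger4*, leaving out si-NC replicate 3 ended that of *Ptgs1*, and leaving out si-NC replicate 2 ended that of *Ptger4*, whereas *Ptges* was called higher without si-*Itgb6* replicate 3.

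**Figure D3:**
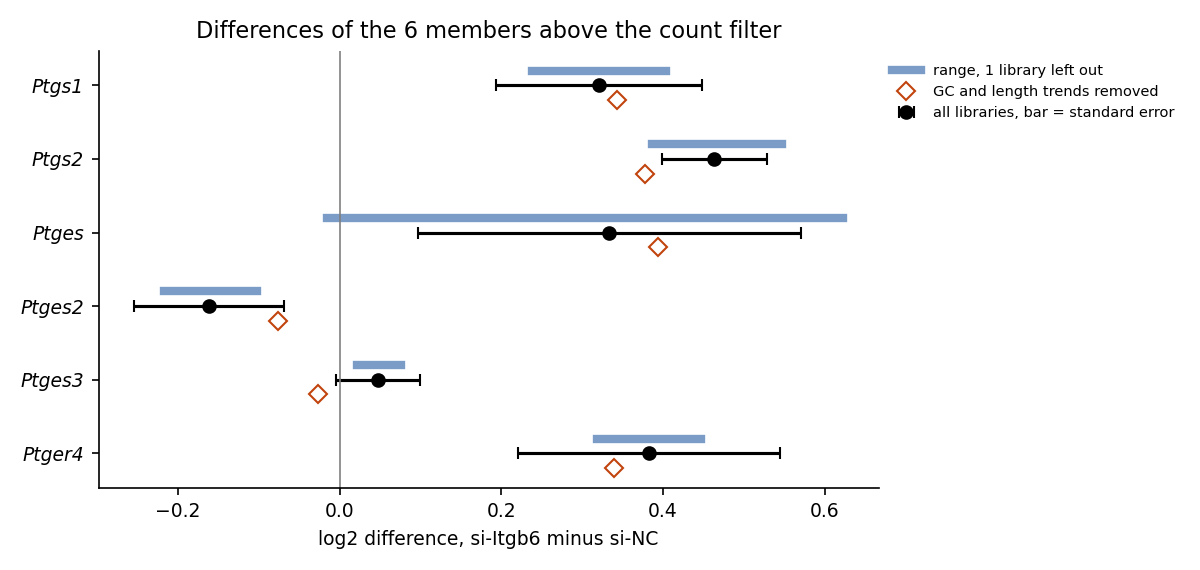
Log2 difference (si-*Itgb6* minus si-NC) of the 6 genes above the count filter. Black points are the fit on all libraries with its SE, blue bars span the fits that leave out 1 library, and open diamonds are the fit with GC and length trends removed. *Ptgs2*, *Ptgs1* and *Ptger4* stay above 0 in each of these, *Ptges2* stays below 0, the bar of *Ptges* runs from -0.02 to 0.62, and *Ptges3* lies near 0 and falls below it once the trends are removed.

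The AU-rich pentamer ATTTA was counted in the 3′ UTR of the longest coding transcript of each gene (GENCODE vM21), since it is the core of the decay elements for which *Ptgs2* is known. *Ptgs2* holds 14 in 2448 bases, 5.72 per kilobase, and 2.89% of 11661 tested genes hold at least as many. That share is of numbers not scaled by length, and the median 3′ UTR of these genes has 1159 bases. *Ptger4* holds 5 in 1236 bases and *Ptgs1* none in 924 bases. Thus the 3 genes that were called higher differ in this feature, with *Ptgs1* among the 30.4% of tested genes that have none. Of the others, *Ptger2* holds 6, *Ptges2*, *Ptges3* and *Hpgd* hold 4 each, and *Ptges* and *Ptger1* hold none, with a median over all tested genes of 2.

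**Figure D4:**
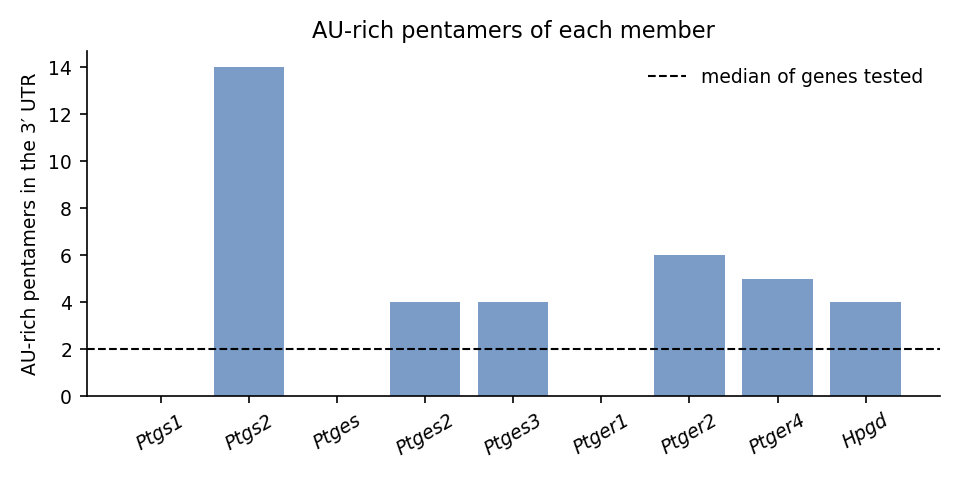
Number of AU-rich pentamers in the 3′ UTR of each of the 9 genes (bars, from 0), with the median of the tested genes, 2, as a dashed line. *Ptgs2* stands apart with 14, and *Ptgs1*, *Ptges* and *Ptger1* have none.

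The rest of the pathway was read from 9 lists that hold 134 genes of the table besides the members, some of them in more than 1 list. Of these, 24 had no count in any library and 83 were tested. Calls were made in both directions: 6 genes were called higher and 7 lower, together 15.7% of those tested, against 9.57% of all genes tested. The lists were chosen with earlier results of these data known, so nothing is read from this share. In each of these 13 the groups did not overlap, which adds little to the calls, since both rest on the same libraries. Of the 610 genes called lower among all genes tested, 597 did not overlap either. The median log2 difference over the 83 genes was -0.07. The calls of 5 (*Slco2a1*, *Cyp2j6*, *Dusp1*, *Cebpb* and *Hnrnpd*) were kept without each library in turn. Adjusted p-values of these genes come from the same edgeR fit, corrected by the Benjamini-Hochberg method over all genes tested. With GC and length trends removed, 8 of the 13 calls were kept, and those of *Acsl3*, *Ptgfrn*, *Sik1*, *Il1a* and *Hnrnpd* were lost. Those of *Cyp2j6* and *Aloxe3* were lost with a filter of at least 10 counts in every library.

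Upstream of the cyclooxygenases, 14 of 27 genes for release and recycling of arachidonic acid were tested, with 2 called higher and 1 lower (median log2 -0.04). *Pla2g4a*, the cytosolic phospholipase that supplies COX enzymes, had 522 and 547 counts in si-NC and 485 and 582 in si-*Itgb6* (log2 0.07, adjusted p = 0.781). *Acsl3*, an acyl-CoA synthetase, rose from 1663 and 1975 counts to 2039 and 2149 (log2 0.28, SE 0.07, adjusted p = 0.0122), although its adjusted p was 0.066 with GC and length trends removed. *Acsl4*, which prefers arachidonic acid and was the most abundant of the list at 42.1 FPKM, had a log2 difference of 0.23 (adjusted p = 0.0109) but stayed under the fold threshold, and its adjusted p was 0.223 with the trends removed. *Pla2g7*, the lipase that inactivates platelet-activating factor, was called higher (log2 0.32, adjusted p = 0.182). *Mboat7*, which returns arachidonic acid to phosphatidylinositol, was called lower (log2 -0.29, adjusted p = 0.0661).

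Of the other terminal synthases, 3 of 7 genes were tested and none was called by edgeR or by DESeq2. An unadjusted edgeR p under 0.05 was found for 1 of the 3, against 18.4% of all genes tested. *Akr1b3*, an aldose reductase that can also make prostaglandin F2α, was the most abundant at 233.0 FPKM (log2 0.18, adjusted p = 0.0793). The synthases of prostacyclin, thromboxane and prostaglandin D2 were near 0: *Ptgis* had 1 and 4 counts against 0 and 0, *Tbxas1* had 1 count in 1 library, and *Ptgds* had 4, 2, 7 and 9 counts. Of 7 other genes of the receptor list, 5 had no count at all. The 1 that was tested, *Ptgfrn*, encodes a membrane protein that binds the prostaglandin F receptor and is itself no receptor, and it fell from 1421 and 1453 counts to 1135 and 1127 (log2 -0.27, SE 0.07, adjusted p = 0.0278; 0.152 with the trends removed).

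Among 8 genes of transport and breakdown, all of them tested, 1 was called higher and 1 lower. *Slco2a1*, the transporter that takes prostaglandins up into cells for breakdown, fell from 4023 and 4068 counts to 3023 and 3090. Its log2 difference was -0.33 (SE 0.06, adjusted p = 0.000381), -0.36 to -0.30 without any 1 library, and -0.29 with the trends removed (adjusted p = 0.0042). At 30.4 FPKM it was about as abundant as *Ptgs2*, and it moved in the opposite direction. *Ptgr1*, a reductase that acts on prostaglandins after the dehydrogenase, was called higher on 244 and 257 counts against 262 and 359 (log2 0.38, adjusted p = 0.107). The si-*Itgb6* libraries stood apart, at 16.9 CPM in replicate 1 and 21.8 CPM in replicate 3. Its log2 difference ran from 0.18 to 0.55 without any 1 library. The exporter *Abcc4* (log2 -0.04, adjusted p = 0.841) and the reductase *Ptgr2* (log2 -0.13, adjusted p = 0.48) were not called.

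In the lipoxygenase and epoxygenase branches, 8 of 21 genes had no count and 7 were tested. The 2 calls rest on few reads. *Cyp2j6*, an epoxygenase, had 1 and 1 counts in si-NC and 14 and 13 in si-*Itgb6*, a depth-scaled ratio of 14.2 (95% exact interval 3.57 to 123.1, counting error only; adjusted p = 0.0201). *Aloxe3*, an epidermal lipoxygenase, had 15 and 14 counts in si-NC and 1 and 5 in si-*Itgb6*, a ratio of si-NC to si-*Itgb6* of 4.60 (1.88 to 13.5; adjusted p = 0.105). *Lta4h*, which makes leukotriene B4 and led the list at 48.4 FPKM, had a log2 difference of 0.01 (adjusted p = 0.953).

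Below EP2 and EP4, none of the 17 tested genes of the cAMP arm was called by edgeR or by DESeq2 (27 listed, median log2 -0.09). An unadjusted edgeR p under 0.05 was found for 3 of the 17, near the share of 18.4% over all genes tested. *Gnas*, the Gs subunit through which EP4 acts, stood at 950.5 FPKM, with estimated counts that are not whole (log2 -0.09, adjusted p = 0.273). Of 9 tested cAMP-responsive early genes, 2 were called, both lower. *Dusp1*, a phosphatase of MAP kinases, fell from 489 and 488 counts to 307 and 318 (log2 -0.57, SE 0.11, adjusted p = 0.002; 0.0128 with the trends removed). *Sik1*, a salt-inducible kinase, fell from 802 and 814 counts to 620 and 592 (log2 -0.34, SE 0.09, adjusted p = 0.0231; 0.147 with the trends removed). *Per1*, the most abundant of the list at 18.9 FPKM, did not pass (log2 -0.08, adjusted p = 0.65).

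Of the transcription factors and cytokines known to act on *Ptgs2*, 20 of 23 genes were tested, with 1 called higher and 1 lower. At an unadjusted p under 0.05 alone, with no fold threshold, 9 of the 20 passed, against 18.4% of all genes tested. These 9 went in both directions. The list was chosen with earlier results of these data known, so nothing is read from this count. *Cebpb*, the C/EBP factor that binds palindromes such as the one printed for the *Ptgs2* promoter, fell from 1607 and 1722 counts in si-NC to 1131 and 998 counts in si-*Itgb6*. Its log2 difference was -0.57 (SE 0.08, adjusted p = 3.24e-05), -0.71 to -0.44 without any 1 library, and -0.36 with the trends removed (adjusted p = 0.0118). *Il1a*, a cytokine gene of the interleukin family, was called higher on 775 and 996 counts against 1041 and 1091 (log2 0.34, SE 0.09, adjusted p = 0.0159; 0.153 with the trends removed). *Nfkbia*, the NF-kB inhibitor and target gene, was the most abundant at 84.1 FPKM (log2 -0.15, adjusted p = 0.197), and the hypoxia factor *Hif1a* did not pass (log2 0.16, adjusted p = 0.0724).

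Of 9 genes for proteins that bind AU-rich messages, all of them tested, 1 was called, as higher. *Hnrnpd*, which encodes the decay factor AUF1, rose from 929 and 981 counts to 1110 and 1134 (log2 0.31, SE 0.08, adjusted p = 0.0174; 0.117 with the trends removed). *Elavl1*, for the stabilising protein HuR (log2 -0.02, adjusted p = 0.93), *Zfp36*, for the decay factor tristetraprolin (log2 -0.01, adjusted p = 0.978), and *Tial1*, the most abundant at 63.4 FPKM (log2 0.12, adjusted p = 0.375), were not called.

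**Figure D5:**
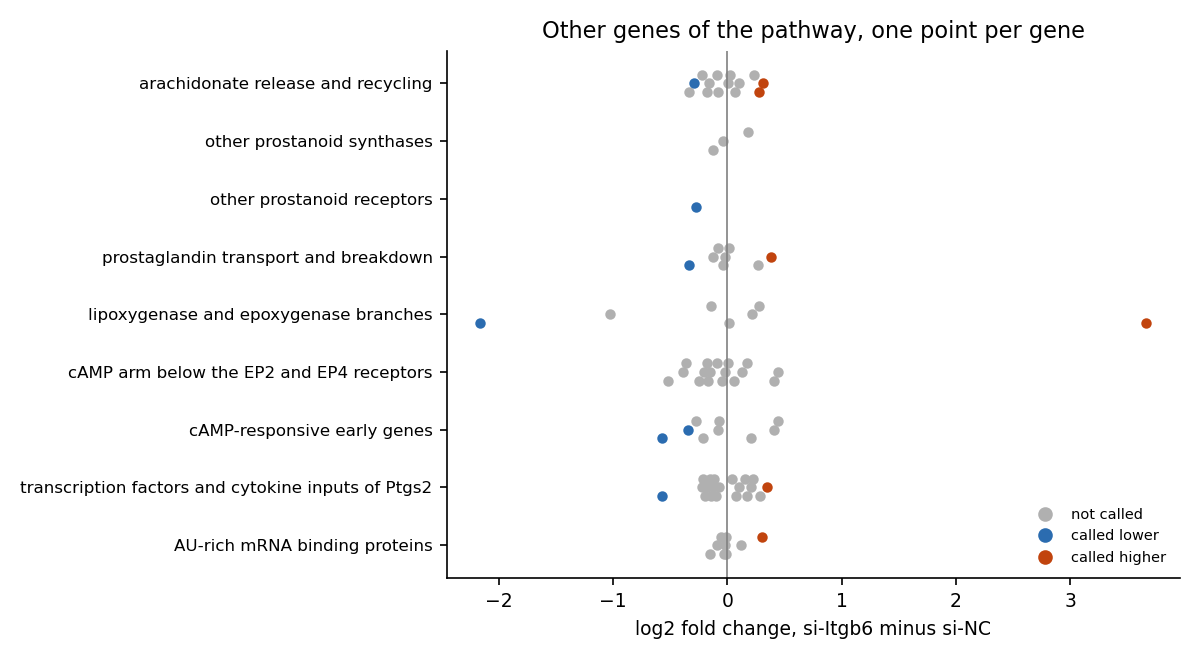
Fitted log2 fold change (si-*Itgb6* minus si-NC) of each tested gene of the 9 pathway lists, one point per gene and a row per list; a gene of 2 lists appears in both rows. Coloured points passed the unadjusted p under 0.05 and fold change over 1.2 as higher (6 genes) or lower (7 genes), and most of the 83 genes lie within 0.5 of 0. The 2 coloured points in the lipoxygenase and epoxygenase row are *Cyp2j6* and *Aloxe3*, which rest on few counts. Another point far from 0 in that row, *Alox12b* (log2 -1.03), was not called.

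The genes whose profile over the 4 libraries was most like that of *Ptgs2* were found by the root mean square distance between centred log2 CPM, among 8185 genes with a mean of at least 10 CPM. They were *Mocos* (distance 0.0143), *Galk2* (0.0166), *Ahnak* (0.0226), *Hspa4l* (0.0275) and *Tfrc* (0.0305), with log2 differences of 0.43 to 0.48. *Tfrc*, the transferrin receptor, for example, had 255.9 and 269.2 CPM in si-NC and 352.6 and 366.0 CPM in si-*Itgb6*. With 4 libraries, a likeness of this kind is a description of levels only.

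Markers of the labelled cell type were sparse. Of 14 proximal tubule genes, 6 reached 1 CPM and 5 had no count in any library (*Slc34a1*, *Slc5a2*, *Slc5a12*, *Slc22a6* and *Slc22a8*, all solute carriers of the mature tubule), whereas all 7 general epithelial genes were found, at a summed 5056 to 5376 CPM, and all 5 genes of injured tubules, at 1010 to 1060 CPM. The summed level of the proximal tubule genes was 33.7 and 38.7 CPM in si-NC and 49.1 and 50.2 CPM in si-*Itgb6*, higher in both si-*Itgb6* libraries, as for *Ptgs2*. That difference lay in 1 gene, the water channel *Aqp1*, which was called higher (387 and 477 counts against 601 and 633; log2 0.59, adjusted p = 0.000617). Without *Aqp1* the list summed to 9.93 and 11.1 CPM against 10.3 and 11.7 CPM, and the groups overlapped. Of 6 leukocyte genes, 2 reached 1 CPM (*Cd68* and *Csf1r*), and the list summed to 121 to 141 CPM with *Cd3e* at 0. That sum was lower in both si-*Itgb6* libraries than in both si-NC libraries, a pattern that 25.4% of all genes tested showed. Neither of the 2 leukocyte genes tested was called. Fibroblast genes summed to 3.19 to 4.85 CPM (1 of 6 at 1 CPM, *Acta2* at 0), endothelial genes to 2.71 to 4.25 CPM (1 of 4, *Emcn* at 0), and collecting duct and thick limb genes to 1.47 to 3.36 CPM (1 of 8, *Aqp2* and *Umod* at 0). Of the podocyte genes, *Nphs1* and *Wt1* were at 0, and *Podxl* had 55.9 to 60.7 CPM. The part of these levels in the differences of the prostaglandin genes was not tested, and in RNA of a whole culture fewer cells of a type and less RNA per cell cannot be told apart.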

How the data were processed

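Poly(A)-enriched RNA was read from both ends in libraries that keep no strand. The authors deposited an estimated count for each gene, not normalized (between 1447 and 1500 genes per library have one that is not whole), and the authors' FPKM, which divide them by length and depth. The aligner, counter and genome build are not given in the sources used here, and the study states that samples were optimized after a cluster analysis, with no further detail.

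Estimated counts were rounded, filtered with edgeR's filterByExpr (minimum count 10, total 15; 11727 of 22063 genes kept), normalized by TMM and compared by quasi-likelihood testing (edgeR 4.0.16, R 4.3.3) on all 4 libraries with no covariate. The thresholds (p under 0.05, not adjusted; fold change over 1.2) and edgeR itself are the study's, which names no test, filter or normalization. The common biological coefficient of variation was 0.0551. Levels between genes were compared in FPKM only. DESeq2 1.42.0 was an alternative, besides other edgeR tests, factors, filters and thresholds, lowess trends (span 0.3) of GC content and length removed as offsets, and each library left out. The fits were tested on simulated data. Figures were drawn with matplotlib 3.10.9.

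Positions, overlaps and 3′ UTRs came from GENCODE vM21 (GRCm38; 99.6% of genes found by identifier) and promoters from RefSeq; the authors' annotation may differ. The members, the pathway and marker lists (139 pathway symbols written, 134 found) and the tests were chosen with earlier results of these data known. Besides the members and *Itgb6*, the named pathway genes are those called and the most abundant of each list. Others were singled out after their values were seen: *Acsl4* as a gene with a low adjusted p, *Pla2g4a*, *Ptgis*, *Tbxas1*, *Ptgds*, *Abcc4*, *Ptgr2*, *Alox12b*, *Hif1a*, *Elavl1*, *Zfp36* and *Aqp1*. Not every exon overlap is reported here.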

Additional observations from a re-analysis of the deposited data

How the results depend on the processing

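For all genes tested, 610 were called lower and 512 higher. The study, which names no edgeR test, filter or normalization, reports fewer genes in each direction under these thresholds. DESeq2 gave 383 lower and 320 higher, an adjusted p under 0.05 with the fold threshold 240 and 178, a fold over 1.5 gave 110 and 125, and a fold over 2 gave 44 and 42. Without any 1 library the counts ran from 402 to 768 lower and from 338 to 645 higher, the lowest of both without si-NC replicate 2. Of the other pathway genes, 7 were called lower and 6 higher. A fold over 1.5 or over 2 left 1 lower and 1 higher, removal of GC and length trends left 3 higher, and without any 1 library there were 5 to 8 lower and 3 to 8 higher, with 3 higher again without si-NC replicate 2. The calls left at a fold over 1.5 or 2 were *Aloxe3* as lower and *Cyp2j6* as higher, which rest on few reads. Both were lost with a filter of at least 10 counts in every library. For the members, *Ptgs2* alone kept its call with DESeq2 and with the adjusted p, and none of the 3 calls was kept at a fold over 1.5 or 2. The log2 difference of *Itgb6*, -0.0051 with all libraries, ran from -0.103 (si-*Itgb6* replicate 1 left out) to 0.0909 (si-*Itgb6* replicate 3 left out), and was 0.0383 with si-NC replicate 2 left out. Removal of the trends moved *Ptgs2* to 0.38, *Ptges2* to -0.08 and *Ptges3* to -0.03, and log2(FPKM + 1) moved *Ptger4* to 0.29. Beyond the rules these settings impose, the cause was not tested. No paired analysis was possible because the groups share only replicate number 3. At this depth *Ptger1*, *Ptger2* and *Hpgd* could not be compared.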
